A study of Mus musculus with 8 samples.

Results

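Perilipins and the lipolytic machinery of the lipid droplet, 10 genes in all, were examined in gastrocnemius muscle of aged mice with and without a muscle-specific deletion of *Nox4*. The genes are the perilipins *Plin1*, *Plin2*, *Plin3*, *Plin4* and *Plin5*, the lipases *Pnpla2*, *Lipe* and *Mgll*, the lipase coactivator *Abhd5* and the lipase inhibitor *G0s2*. They were taken by name from the 32390 rows of the count table, and each name stands on a single row. The control mice were *Nox4* fl/fl (n = 4), in which *Nox4* is flanked by loxP sites but not deleted, and the NOX4-deficient mice were MckCre:*Nox4* fl/fl (n = 4, KO in the plots). Both groups therefore carry the floxed alleles, and only the second carries Cre. Cre was driven by the muscle creatine kinase promoter, which is active in skeletal muscle fibers and, more weakly, in heart, so that fat cells, blood vessels and immune cells within the muscle keep the gene. By the study's methods the mice were males on a C57BL/6 background fed a standard chow, and by the labels they were 21 months old and belong to batch 1. Each library is the poly(A) RNA of a whole muscle from 1 mouse, sequenced without strand information.

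A lipid droplet is a core of triglyceride wrapped in a phospholipid monolayer, and the perilipins are the proteins that coat it. Triglyceride is broken down in order by adipose triglyceride lipase (ATGL, encoded by *Pnpla2*), hormone-sensitive lipase (*Lipe*) and monoacylglycerol lipase (*Mgll*). ATGL is switched on by its coactivator ABHD5 (also called CGI-58) and held back by G0S2. In adipocytes PLIN1 binds ABHD5 until beta-adrenergic signaling releases it. In oxidative muscle and heart PLIN5 takes a comparable place and tethers droplets to mitochondria, where the released fatty acids are oxidized.

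In NOX4-deficient muscle *Plin5*, *Pnpla2* and *Plin4* were lower than in control muscle. *Plin5* fell to 0.300 of its control level, *Pnpla2* to 0.439 and *Plin4* to 0.549. *Plin3* was lower in every NOX4-deficient library than in any control library but missed the threshold. These are levels in whole muscle, where fewer cells of a type and less RNA per cell cannot be told apart. *Plin2*, the coactivator gene *Abhd5* and the inhibitor gene *G0s2* differed by less than the spread between mice, and no gene of the 10 passed the test as higher. All 10 passed the filter on low counts and were tested together with the whole table of 12725 rows by the quasi-likelihood test of edgeR, with Benjamini-Hochberg adjustment. The study's own thresholds were kept, so that a call needed an adjusted p under 0.05 together with a log2 fold change beyond 0.5 in either direction. By that rule 3 of the 10 genes were called lower and 0 higher, against 3.48% of all rows called lower, 2.68% called higher and 6.16% called in either direction. No gene of the 10 had an unadjusted p under 0.05 in the upward direction, and DESeq2 and pydeseq2 also called 0 higher.

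Sequence is shown upstream of the 3 genes called lower, and of *Plin2* as a perilipin that was not called. It places them on the genome and gives the letters behind the motif counts that follow. Each run is the 250 bases before the transcription start in RefSeq (GRCm38.p6), read 5′ to 3′ on the strand of the gene. Capitals mark the motifs searched that lie wholly within the run.
Plin5, chr17:56117549-56117798, minus strand, before the upstream one of its 2 listed starts: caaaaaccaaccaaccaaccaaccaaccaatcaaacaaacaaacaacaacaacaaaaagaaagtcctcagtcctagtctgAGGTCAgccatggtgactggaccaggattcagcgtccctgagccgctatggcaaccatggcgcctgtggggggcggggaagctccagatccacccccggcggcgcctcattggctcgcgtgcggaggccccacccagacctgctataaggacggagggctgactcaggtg
Plin4, chr17:56109783-56110032, minus strand: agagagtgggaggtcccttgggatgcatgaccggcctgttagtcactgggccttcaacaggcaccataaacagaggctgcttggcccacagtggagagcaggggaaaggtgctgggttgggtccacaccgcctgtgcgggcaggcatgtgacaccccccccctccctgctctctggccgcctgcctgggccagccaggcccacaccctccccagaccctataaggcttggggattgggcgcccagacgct
Pnpla2, chr7:141454938-141455187, plus strand: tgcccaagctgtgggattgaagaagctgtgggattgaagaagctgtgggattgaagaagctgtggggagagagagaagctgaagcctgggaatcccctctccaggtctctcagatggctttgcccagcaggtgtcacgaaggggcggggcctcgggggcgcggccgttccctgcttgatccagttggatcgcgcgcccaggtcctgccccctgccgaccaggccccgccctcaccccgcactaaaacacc
Plin2, chr4:86670060-86670309, minus strand: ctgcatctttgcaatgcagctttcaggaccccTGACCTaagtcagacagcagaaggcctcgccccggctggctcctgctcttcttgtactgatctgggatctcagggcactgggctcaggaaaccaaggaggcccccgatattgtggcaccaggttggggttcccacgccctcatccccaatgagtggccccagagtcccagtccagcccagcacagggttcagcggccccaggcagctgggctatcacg

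Windows from 250 bases before to 50 bases after the start were searched on both strands in all 32851 RefSeq windows, 13 of which belong to the 10 genes. The nuclear receptor core AGGTCA stood in windows of *Plin2*, *Plin5* and *Abhd5*, and in 16.3% of all windows. In *Plin5* it began 170 bases before the start shown, with another match 14 bases after the second start, and in *Plin2* it lay on the opposite strand, 218 bases before the start. The direct repeat AGGTCANAGGTCA, which contains that core and is bound by PPAR and RXR, stood in none of the 13 windows and in 0.0396% of all windows. The core of the antioxidant response element bound by NFE2L2, TGACNNNGC, was also found in none of the 13, against 12.4% of all windows. The forkhead motif GTAAACA was found for *Lipe* and *Mgll* (3.65% of all windows), and the E-box CACGTG for *Plin2*, *Lipe* and *Mgll* (7.15%). In the windows of *Pnpla2* and *Plin4* none of the 5 motifs was found. These are matches of letters in short windows and say nothing about sites farther away.

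*Plin5* and *Plin4* are next to each other on chromosome 17 in RefSeq, with 0 protein-coding genes between them, and *Plin3* follows after 7 others. Of the 12 tested genes among the 17 protein-coding neighbors listed (those between, and 5 on each side), 2 were called. The share of all rows called in either direction was 6.16%. *Ticam1*, an adaptor of Toll-like receptor signaling, was lower (log2 fold change -0.92) and *Ptprs*, a receptor phosphatase, was higher (0.89). *Lrg1*, the gene next to *Plin5* on the other side, had a log2 fold change of 0.12 ± 0.26 (SE, edgeR adjusted p = 0.837), and *Hdgfl2*, next to *Plin4*, had -0.07 ± 0.12 (SE, edgeR adjusted p = 0.784).

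The libraries held between 16350548 and 19804661 counts on genes. *Nox4*, the deleted gene, had 35 to 85 counts in control libraries and 29 to 43 in NOX4-deficient libraries. Its log2 fold change was -0.65 ± 0.29 (SE, edgeR adjusted p = 0.207), and the groups overlapped, so that the level of *Nox4* in whole muscle did not by itself separate the labelled genotypes. Markers of skeletal muscle fibers (*Acta1*, *Ckm*, *Mylpf*, *Tnnt3*, *Myh4* and *Ttn*) summed to between 121750 and 149960 CPM (counts scaled to a common depth with TMM factors) in control libraries and between 132810 and 152570 CPM in NOX4-deficient libraries. All 6 were present in every library, and 0 were called by edgeR, with 0 at an unadjusted p under 0.05.

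*Plin5*, the droplet coat protein of oxidative tissues, had the largest change among the 3 genes called lower. Control replicates 1 to 4 had 28.8, 38.3, 24.0 and 26.6 CPM, against 8.90, 5.92, 8.46 and 12.1 CPM in NOX4-deficient replicates 1 to 4. The highest NOX4-deficient library was thus below the lowest control library by a wide margin. Means were 29.4 ± 6.26 CPM (SD, n = 4) and 8.84 ± 2.53 CPM (SD, n = 4), and NOX4-deficient over control was -1.74 ± 0.21 (SE) on the log2 scale, with a 95% interval from -2.19 to -1.29 (edgeR adjusted p = 7.33e-04). Control replicate 2 had the most and NOX4-deficient replicate 2 the least. *Plin5* rested on 448 to 745 counts per control library and 117 to 206 counts per NOX4-deficient library, and it ranked 31 of 12725 rows by p-value.

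*Plin4*, which coats droplets in adipocytes and in muscle fibers, was the most abundant perilipin. Control replicates 1 to 4 had 346, 315, 355 and 416 CPM, and NOX4-deficient replicates 1 to 4 had 130, 186, 199 and 271 CPM. The groups did not overlap, although NOX4-deficient replicate 4 came close to the lowest control library. Means were 358 ± 42.3 CPM and 196 ± 58.1 CPM (SD, n = 4 each), and NOX4-deficient over control was -0.87 ± 0.18 (SE) on the log2 scale, with a 95% interval from -1.27 to -0.46 (edgeR adjusted p = 0.0171). The call was lost without NOX4-deficient replicate 2, where the log2 fold change was -0.84 and the edgeR adjusted p 0.0509. It was also lost without both that library and control replicate 1, the pair highest in adipocyte markers, at -0.86 (edgeR adjusted p = 0.0829).

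*Plin3*, a widely expressed perilipin that moves from the cytosol onto new droplets, had 39.1, 30.1, 22.6 and 20.6 CPM in control and 18.4, 14.4, 19.3 and 19.0 in NOX4-deficient replicates 1 to 4. Every NOX4-deficient library lay below every control library, but the lowest control and the highest NOX4-deficient library were close. The log2 fold change was -0.66 ± 0.19 (SE), with a 95% interval from -1.07 to -0.25 (edgeR adjusted p = 0.0531). The value is on the edge of the threshold, since DESeq2 called it (adjusted p = 0.0171), as did edgeR without control replicate 4 (-0.78, adjusted p = 0.0331). Without control replicate 1 and NOX4-deficient replicate 2, the libraries highest in adipocyte markers, it was -0.37 (edgeR adjusted p = 0.187). Together with *Plin5*, *Plin4* and *Pnpla2*, *Plin3* makes 4 of 10 genes whose groups did not overlap downward and 0 upward, against 8.97% of all rows downward, 7.2% upward and 16.2% in either direction.

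*Plin2*, the perilipin that coats droplets in most tissues and follows their lipid load, had 26.1, 26.5, 24.7 and 19.2 CPM in control and 31.0, 29.5, 23.8 and 24.9 in NOX4-deficient replicates 1 to 4. The ranges overlapped. The log2 fold change was 0.18 ± 0.13 (SE), with a 95% interval from -0.11 to 0.47 (edgeR adjusted p = 0.464), an interval that leaves out a change of the size seen in *Plin5*, *Plin4* or *Pnpla2*. *Plin2* and *Plin5* therefore stood in a different order in the 2 groups. Per kilobase of exon, the ratio of *Plin5* to *Plin2* was 1.86, 2.43, 1.64 and 2.33 in control and 0.484, 0.337, 0.599 and 0.816 in NOX4-deficient replicates 1 to 4, without overlap.

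*Plin1*, the perilipin of adipocytes, was the most variable gene of the 10 and, by group mean per kilobase, the least abundant. Control replicates 1 to 4 gave 99, 47, 17 and 29 reads, and NOX4-deficient replicates 1 to 4 gave 95, 285, 79 and 58. In CPM these were 5.93, 2.42, 0.910 and 1.51 against 5.72, 14.4, 4.15 and 3.40. NOX4-deficient replicate 2 stood far above all others, and control replicate 1 lay above every other NOX4-deficient library. The log2 fold change was 1.38 ± 0.63 (SE), with a 95% interval from -0.04 to 2.81 (edgeR adjusted p = 0.229). It was 0.73 without NOX4-deficient replicate 2 and 2.1 without control replicate 1, where edgeR gave adjusted p-values of 0.46 and 0.0683.

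**Figure D1:**
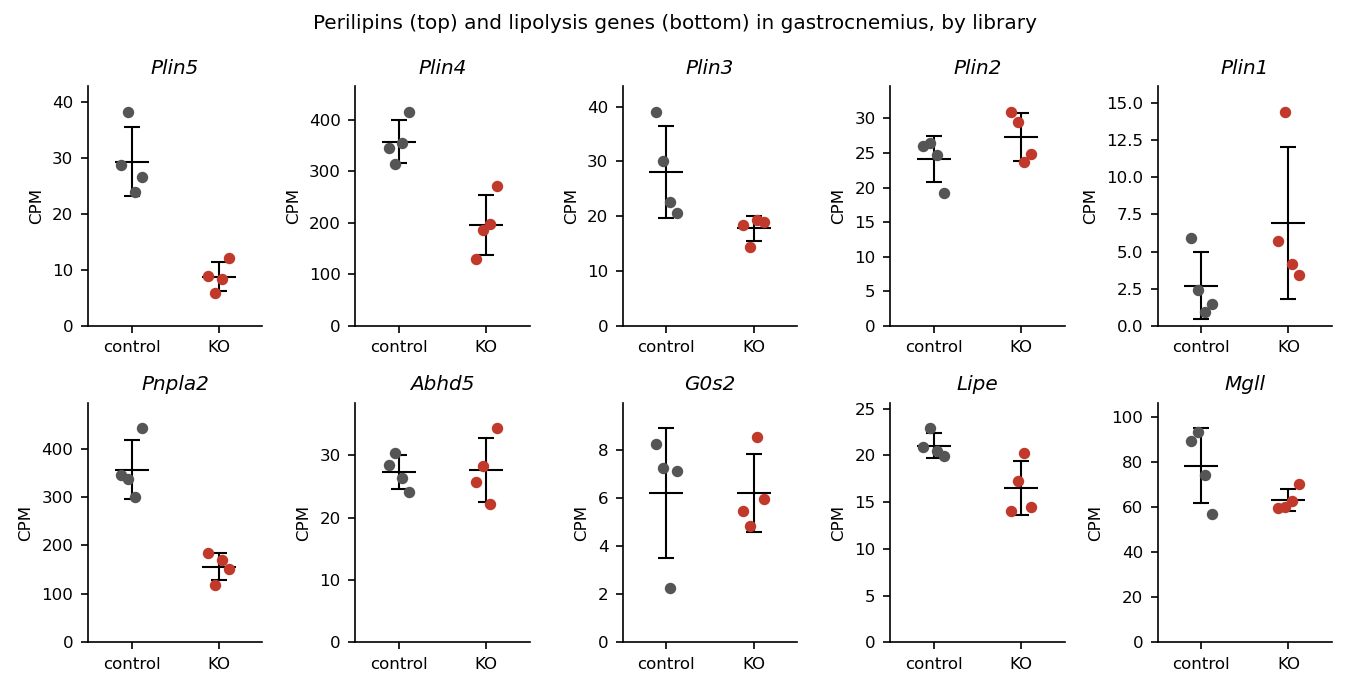
CPM of the 5 perilipins (top row) and the 5 lipolysis genes (bottom row) in each library, with control in gray and NOX4-deficient (KO) in red on a linear axis from 0; lines give the mean and the SD of 4 mice. The groups are apart for *Plin5*, *Plin4*, *Plin3* and *Pnpla2* and overlap for the other 6 genes.

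*Pnpla2*, which encodes ATGL, the first lipase of the cascade, was the most abundant of the 10 genes per kilobase. It had 346, 337, 300 and 442 CPM in control and 184, 119, 171 and 152 in NOX4-deficient replicates 1 to 4. Every NOX4-deficient library lay well below the lowest control library. Means were 356 ± 60.6 CPM and 157 ± 28.3 CPM (SD, n = 4 each), and NOX4-deficient over control was -1.19 ± 0.15 (SE) on the log2 scale, with a 95% interval from -1.52 to -0.86 (edgeR adjusted p = 9.94e-04). Its counts, 2355 to 8502 per library, made this the best-sampled of the lipases.

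The regulators of ATGL did not pass the test. *Abhd5*, the coactivator, had 28.4, 30.4, 26.3 and 24.1 CPM in control and 25.7, 28.3, 22.2 and 34.4 in NOX4-deficient replicates 1 to 4. Its log2 fold change was 0.02 ± 0.14 (SE), with a 95% interval from -0.28 to 0.32 (edgeR adjusted p = 0.963), and its sign changed when control replicate 4 or NOX4-deficient replicate 4 was left out. *Abhd5* shares 950 exonic bases with *A730085K08Rik* on the opposite strand in GENCODE, and without strand the reads there cannot be assigned.

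*G0s2*, the ATGL inhibitor, had 8.27, 7.26, 2.25 and 7.12 CPM in control and 5.47, 4.85, 8.57 and 5.98 in NOX4-deficient replicates 1 to 4. Control replicate 3 was low and the other libraries were mixed. The log2 fold change was 0.00 ± 0.33 (SE), with a 95% interval from -0.73 to 0.73 (edgeR adjusted p = 0.999). At 42 to 163 counts per library and this spread, a change of the size of that of *Plin4* lies only just outside the interval.

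The levels of *Pnpla2* relative to its regulators therefore differed between groups. The ratio of *Pnpla2* to *Abhd5* (CPM) was 12.2, 11.1, 11.4 and 18.4 in control and 7.17, 4.21, 7.71 and 4.42 in NOX4-deficient replicates 1 to 4. The ratio of *Pnpla2* to *G0s2* was 41.8, 46.5, 133 and 62.1 in control and 33.7, 24.5, 19.97 and 25.4 in NOX4-deficient replicates 1 to 4. Neither ratio overlapped between groups, while the levels of *Abhd5* and *G0s2* alone did. Ratios of transcripts do not measure the proteins.

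**Figure D2:**
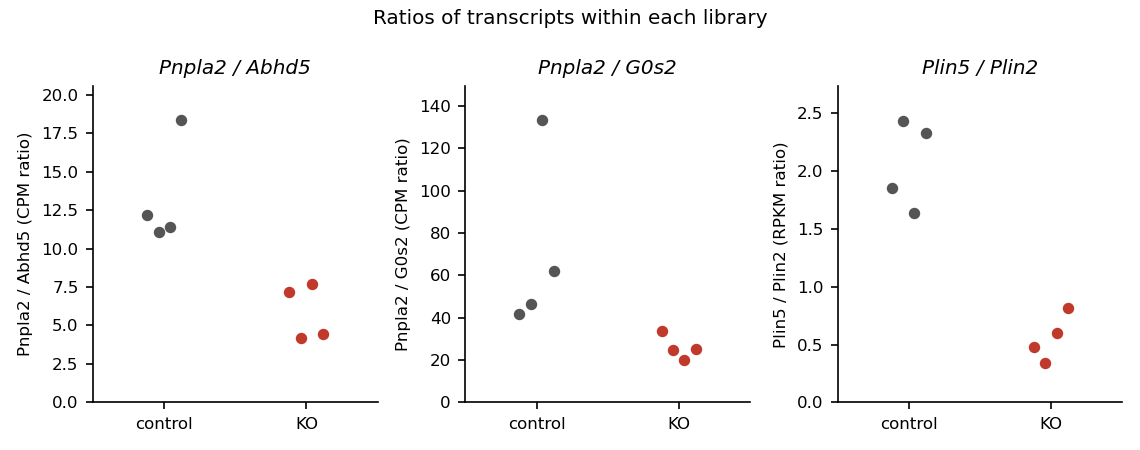
Ratios within each library of *Pnpla2* to *Abhd5* and of *Pnpla2* to *G0s2* (both of CPM) and of *Plin5* to *Plin2* (of RPKM), for 4 control (gray) and 4 NOX4-deficient (KO, red) libraries on linear axes from 0. In each panel the red points lie below all gray points, with *Plin5* to *Plin2* above 1.6 in every control and below 0.82 in every NOX4-deficient library.

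The lipases that follow ATGL did not pass the test. *Lipe*, hormone-sensitive lipase, had 20.9, 22.9, 20.4 and 19.9 CPM in control and 14.0, 17.3, 20.3 and 14.5 in NOX4-deficient replicates 1 to 4. NOX4-deficient replicate 3 lay within the control range and the other 3 below it. The log2 fold change was -0.35 ± 0.13 (SE), with a 95% interval from -0.64 to -0.06 (edgeR adjusted p = 0.137). *Lipe* shares 918 exonic bases with *4732471J01Rik* on the opposite strand, as *Mgll* does 167 with *Gm26588* and *Plin4* 17 with *Hdgfl2*. *Mgll*, which releases glycerol and the last fatty acid, had 89.4, 93.6, 74.5 and 56.9 CPM in control and 59.8, 60.0, 63.0 and 70.3 in NOX4-deficient replicates 1 to 4. Its log2 fold change was -0.31 ± 0.14 (SE), with a 95% interval from -0.62 to -0.0026 (edgeR adjusted p = 0.212), and control replicate 4 had the least of all 8 libraries. Neither gene was called under any alternative tried.

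**Figure D3:**
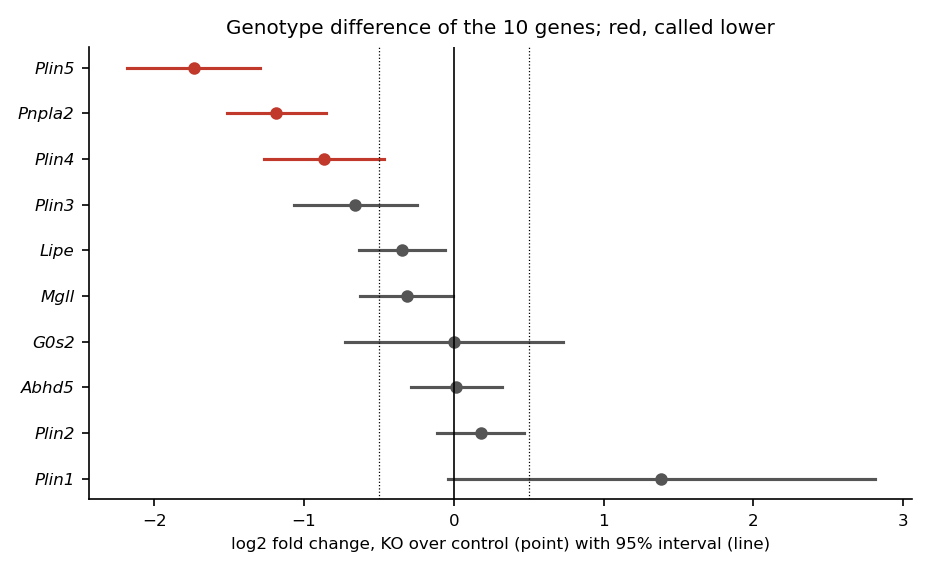
Log2 fold change of NOX4-deficient (KO) over control for the 10 genes (points) with 95% intervals from the edgeR fit (lines), where dotted lines mark 0.5 in either direction and red marks genes called lower. The intervals of *Plin5* and *Pnpla2* lie wholly below -0.5, that of *Plin4* ends at -0.46, and that of *Plin1* runs from -0.04 to 2.81.

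To compare levels between genes, CPM were divided by the length of the union of exons of each gene in GENCODE (RPKM). In control muscle the order was *Pnpla2* (118 ± 20.1 RPKM), *Plin4* (61.9 ± 7.32), *Mgll* (15.5 ± 3.27), *Plin5* (14.1 ± 3.00), *Plin3* (7.42 ± 2.21), *G0s2* (7.15 ± 3.1003), *Plin2* (6.87 ± 0.953), *Abhd5* (4.58 ± 0.454), *Lipe* (3.57 ± 0.222) and *Plin1* (0.579 ± 0.484), each as mean ± SD of 4 mice. *Mgll* and *Plin5* did not differ beyond their spread, nor did *Plin3*, *G0s2* and *Plin2*. In NOX4-deficient muscle *Pnpla2* (51.8 ± 9.38 RPKM), *Plin4* (34.0 ± 10.1) and *Mgll* (12.5 ± 0.968) were again highest. *Plin2* (7.77 ± 0.997) and *G0s2* (7.14 ± 1.87) came next, and *Plin3* (4.70 ± 0.603), *Abhd5* (4.64 ± 0.862) and *Plin5* (4.24 ± 1.21) did not differ beyond their spread. *Lipe* (2.81 ± 0.492) and *Plin1* (1.49 ± 1.09) were lowest.

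As a share of all perilipin transcripts per kilobase, *Plin5* was 15.5 ± 3.49% in control and 8.16 ± 1.94% in NOX4-deficient muscle (SD, n = 4 each), without overlap. The share of *Plin2* was 7.59 ± 1.27% and 15.5 ± 4.51%, also without overlap. *Plin4* made up most of the perilipin transcripts in both groups, 68.1 ± 6.23% and 64.2 ± 7.51%. The share of *Plin1* was highest in NOX4-deficient replicate 2 (6.15%). Shares sum to the whole, so that the share of *Plin2* is larger where *Plin4* and *Plin5* are lower.

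**Figure D4:**
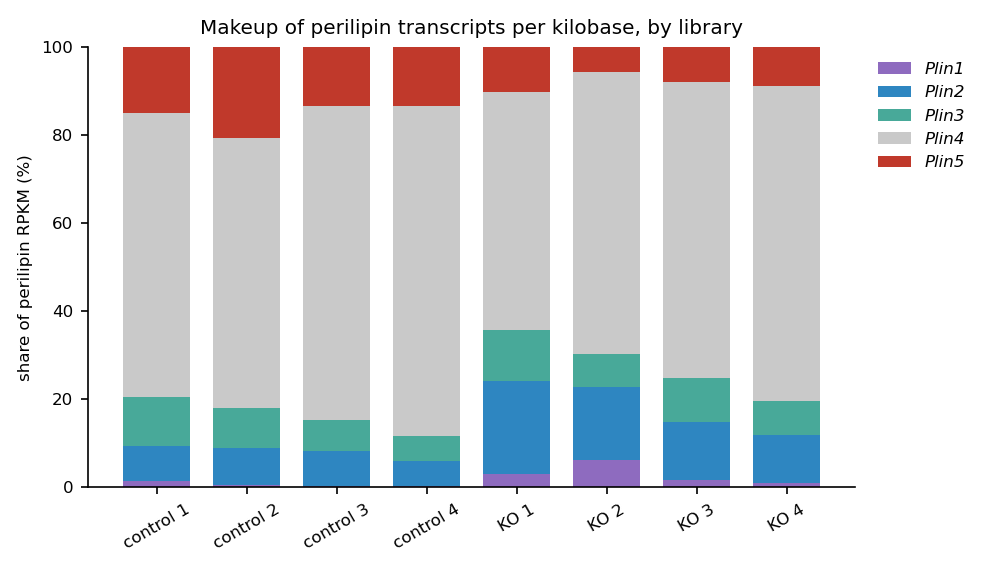
Share of each perilipin in the summed RPKM of the 5 perilipins, in percent, for each of the 8 libraries (control 1 to 4, KO 1 to 4, stacked bars that fill the axis). The red segment (*Plin5*) is 13.3% to 20.7% in control and 5.63% to 10.3% in NOX4-deficient libraries, while the blue segment (*Plin2*) is larger in each NOX4-deficient library than in any control library.

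The 10 genes were also separated into a muscle fiber set and an adipocyte set. The split is loose, since *Pnpla2* encodes adipose triglyceride lipase, *Plin2* and *Plin3* are found in many tissues, and *Plin4* also coats droplets in muscle fibers. Of the 5 genes placed with muscle fibers (*Plin2*, *Plin3*, *Plin5*, *Pnpla2* and *Abhd5*), 2 were called lower, and the log2 fold changes had a median of -0.66. Of the 5 placed with adipocytes (*Plin1*, *Plin4*, *Lipe*, *G0s2* and *Mgll*), *Plin4* was called lower, with a median of -0.31. Over all rows tested 3.48% were called lower and the median was 0.01.

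Transcripts of fat cells were found in every library, in differing amount. The 8 adipocyte markers *Adipoq*, *Lep*, *Retn*, *Cfd*, *Cidec*, *Adrb3*, *Adig* and *Thrsp* summed to 88.2, 31.1, 22.5 and 27.9 CPM in control and to 45.4, 67.5, 41.6 and 27.6 in NOX4-deficient replicates 1 to 4. Control replicate 1 and NOX4-deficient replicate 2 were highest and the ranges overlapped. Of the 7 markers tested (*Adrb3* had 0 counts in 4 libraries and at most 4 in the others), 5 had a positive and 2 a negative log2 fold change, and 0 were called by edgeR, by DESeq2 or by pydeseq2, with 0 at an unadjusted p under 0.05. In log2 fold change ± SE, *Adipoq* (adiponectin) stood at 0.87 ± 0.56, *Lep* (leptin) at 0.91 ± 0.80, *Cidec*, which fuses droplets, at 0.32 ± 0.62 and *Thrsp*, an activator of lipogenesis, at 0.17 ± 0.20. *Retn* (resistin) stood at 0.15 ± 0.54, *Adig* (adipogenin) at -0.14 ± 0.46 and *Cfd* (adipsin) at -0.69 ± 0.72. The edgeR adjusted p-values of these 7 genes ran from 0.401 to 0.907.

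Deviations of log2 CPM from the genotype means, taken over the 8 libraries, showed which of the 10 genes moved with these markers. The Pearson r with the mean of the 7 markers was 0.93 for *Plin1*, 0.63 for *Plin3*, 0.52 for *G0s2*, 0.47 for *Plin2*, 0.35 for *Mgll*, 0.12 for *Lipe* and 0.08 for *Abhd5*. It was -0.09 for *Pnpla2*, -0.14 for *Plin5* and -0.33 for *Plin4*. These are descriptions over 8 libraries that share depth and scaling. *Plin4*, although abundant in adipocytes, therefore did not follow the fat cell markers here. With the mean of the markers as a term in the edgeR fit, *Plin5* (-1.73, adjusted p = 0.00164), *Pnpla2* (-1.18, adjusted p = 0.00251) and *Plin4* (-0.84, adjusted p = 0.0245) were still called lower. With that term *Plin3* was called as well (-0.69, edgeR adjusted p = 0.0334).

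*Plin1* differed between groups when set against these markers. Its ratio to their summed CPM was 0.0673, 0.0778, 0.0404 and 0.0541 in control and 0.126, 0.214, 0.0998 and 0.123 in NOX4-deficient replicates 1 to 4, without overlap. With the marker term it was called higher (log2 fold change 1.19, edgeR adjusted p = 0.032). *Cfd* made up much of the marker sum in some libraries (41.2 of 88.2 CPM in control replicate 1) and little of it in NOX4-deficient replicate 2 (8.24 of 67.5 CPM), so that the ratio depends on which markers are summed.

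**Figure D5:**
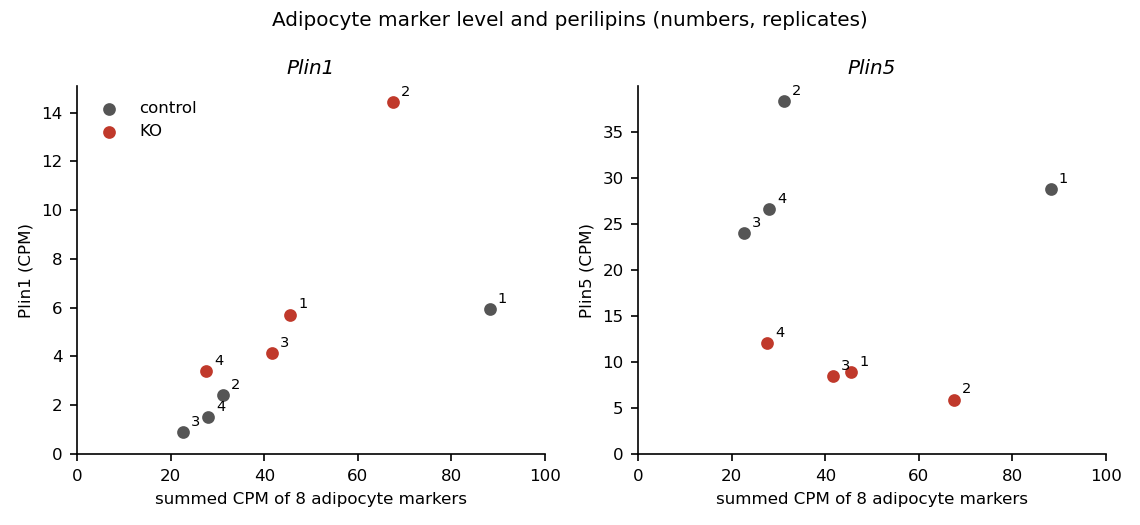
CPM of *Plin1* (left) and *Plin5* (right) against the summed CPM of 8 adipocyte markers in the 8 libraries, with control in gray and NOX4-deficient (KO) in red and replicate numbers beside the points. *Plin1* is highest where the markers are high, in KO replicate 2 (14.4 CPM) and control replicate 1 (5.93 CPM), while *Plin5* is at most 12.1 CPM in KO and at least 24.0 CPM in control at any marker level.

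The genes whose deviations were most like those of *Plin1* over the 8 libraries were *Ccdc80* (r = 0.994), *Cidec* (0.982), *Adipoq* (0.961), *Prkar2b* (0.955) and *Lbp* (0.953), of which *Cidec* and *Adipoq* are among the adipocyte markers. Those most like *Plin5* were *Anks1a* (0.957), *Txnl4a* (0.954), *Fitm2* (0.952), *Wfs1* (0.942) and *Pdlim1* (0.937). *Fitm2* encodes a protein of the endoplasmic reticulum needed for droplet formation. For *Pnpla2* they were *Magoh* (0.983), *Sptssa* (0.967), *Mfsd11* (0.963), *Trp53rka* (0.962) and *Pir* (0.958), and for *Plin4* they included *Cep170* (0.985), *Wbp1l* (0.979), *Zfp60* (0.965) and *Foxo3* (0.963). These are the highest of 12725 rows over 8 libraries and are given as a description. Among the 10 genes themselves, the highest r was between *Plin3* and *Mgll* (0.782) and the lowest between *Plin2* and *Plin4* (-0.721), while *Plin5* and *Pnpla2* had 0.352.

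Other proteins of the droplet were read from the same fit. Of 15 tested genes of droplet coating and formation outside the 10, 7 had a negative and 8 a positive log2 fold change, with a median of 0.01, and 0 were called by edgeR in either direction. At an unadjusted p under 0.05, 4 were lower and 1 higher, and DESeq2 and pydeseq2 each called 1 lower. *Fitm2* fell from 116 ± 10.8 to 86.3 ± 8.96 CPM and *Spart* (spartin, which acts in droplet turnover) from 52.5 ± 4.56 to 39.2 ± 0.859 CPM (SD, n = 4 each). On the log2 scale both were at -0.42, where the edgeR adjusted p was 0.0335 for *Fitm2* and 0.0211 for *Spart*, so that they passed the p threshold but not the fold threshold. Both were named after their values were seen. *Cidea* was too low to be tested, with a mean of 0.872 ± 0.780 CPM over the 4 controls and of 0.234 ± 0.0959 CPM over the 4 NOX4-deficient libraries (SD).

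Among 21 tested genes of other lipases and of lipolytic control, 13 had a negative and 8 a positive log2 fold change, with a median of -0.12. By edgeR 0 were called in either direction, with 4 lower and 1 higher at an unadjusted p under 0.05, and DESeq2 and pydeseq2 also called 0. *Pde4d*, which degrades cyclic AMP, had 246 ± 49.4 CPM in control and 123 ± 64.1 in NOX4-deficient muscle, at -1.01 ± 0.35 on the log2 scale (SE, edgeR adjusted p = 0.13). *Lipa*, the lysosomal acid lipase, stood at -0.43 ± 0.13 (SE, edgeR adjusted p = 0.0619). *Prkaca*, the catalytic subunit of protein kinase A, stood at 0.24 ± 0.09 (SE, edgeR adjusted p = 0.141). Of 12 tested genes of triglyceride synthesis, 2 were called lower and 0 higher by edgeR, against 3.48% and 2.68% of all rows. At an unadjusted p under 0.05, 0 were higher, and DESeq2 and pydeseq2 also called 0 higher. *Lpin1*, a phosphatidate phosphatase that makes diacylglycerol, fell from 718 ± 169 to 265 ± 55.6 CPM (SD, n = 4 each), a log2 fold change of -1.44 ± 0.18 (SE, edgeR adjusted p = 9.61e-04). *Agpat3*, an acyltransferase of the step before it, had a log2 fold change of -0.56 ± 0.10 (SE, edgeR adjusted p = 0.00558). *Dgat1* and *Dgat2*, which make the final triglyceride, stood at -0.11 ± 0.15 (SE, edgeR adjusted p = 0.709) and -0.05 ± 0.21 (SE, edgeR adjusted p = 0.926).

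Several perilipins and *Pnpla2* are known PPAR targets, so 24 other textbook targets were read from the same fit. Of these, 20 were on the negative side, the median log2 fold change was -0.32, and 6 were called lower and 0 higher by edgeR, with 0 higher at an unadjusted p under 0.05 and 0 higher by DESeq2 and pydeseq2. Over all rows tested 3.48% were called lower, but the list was chosen with earlier results of these data known. Without control replicate 2 the count called lower was 3. The 4 with the smallest p-values were *Acot2* and *Acot1*, which are acyl-CoA thioesterases, *Mlycd*, malonyl-CoA decarboxylase, and *Cd36*, a fatty acid transporter. *Acot2* fell from 74.9 ± 12.4 to 15.1 ± 2.84 CPM and *Acot1* from 7.33 ± 2.39 to 0.714 ± 0.206 CPM (SD, n = 4 each), although these are close paralogs whose reads the counting could split. *Mlycd* fell from 123 ± 9.90 to 68.9 ± 13.5 CPM and *Cd36* from 441 ± 69.8 to 268 ± 60.2 CPM (SD, n = 4 each), with log2 fold changes of -0.83 and -0.72 and edgeR adjusted p-values of 0.00475 and 0.0189. *Cpt1a*, which feeds fatty acids into mitochondria, had 0.16 ± 0.17 (SE, edgeR adjusted p = 0.612). Its paralog *Cpt1b* had only 10 to 21 counts per library (-0.13 ± 0.34, SE, edgeR adjusted p = 0.869). *Slc25a20*, of the same carnitine shuttle, stood at -0.42 ± 0.14 (SE, edgeR adjusted p = 0.0882) without overlap of the groups. *Cpt1a* alone therefore does not describe this step.

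Other features of the libraries moved with genotype beside these genes. Of 13 tested genes of the clock and of fasting or glucocorticoid responses, 6 were called lower and 3 higher by edgeR. Among all rows tested, 3.48% were called lower and 2.68% higher. The list was chosen with earlier results of these data known. *Fbxo32*, a ubiquitin ligase induced by fasting, had 778, 737, 860 and 1694 CPM in control and 317, 403, 232 and 368 in NOX4-deficient replicates 1 to 4, and *Dbp*, a clock output gene, ranged from 4.26 to 30.6 CPM and from 65.1 to 96.7 CPM. Control replicate 4 had the most *Fbxo32*, *Pnpla2* and *Plin4* of all libraries. Without that library *Pnpla2* (-1.07, edgeR adjusted p = 0.00216) and *Plin4* (-0.79, edgeR adjusted p = 0.0457) were still called lower. Since the groups did not overlap in *Fbxo32* or *Dbp*, feeding state or hour of sampling and genotype cannot be told apart from these 8 libraries.

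Slow-fiber markers, whose fibers hold more droplets, summed to 186.5 to 443 CPM in control and 294 to 769 in NOX4-deficient libraries. All 6 had a positive log2 fold change, with a median of 0.73, 0 were called by edgeR and 0 had an unadjusted p under 0.05. The 6 macrophage and leukocyte markers, cells that also express *Plin2*, summed to 30.7 to 75.8 CPM and 15.4 to 38.9 CPM. All 6 lay on the negative side, the median log2 fold change was -0.58, 0 were called by edgeR and 2 had an unadjusted p under 0.05. The 5 endothelial markers summed to 188 to 235 CPM and 204 to 220 CPM. Their log2 fold changes had a median of -0.03, with 0 called by edgeR and 0 at an unadjusted p under 0.05. The part of these cells in the results was not tested.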

How the data were processed

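Raw counts of reads per gene were deposited by the authors as 1 table with 1 column per mouse, without normalization. According to the study's methods, gastrocnemius RNA was column-purified, poly(A)-selected and sequenced as unstranded paired-end libraries, and an nf-core pipeline for RNA-seq took the reads to gene counts. The submitters' processing notes name STAR and GRCm39. The annotation and the settings of the counter are not given in the sources used here. All 8 columns matched a sample by name. The table has 32390 rows, of which 412 repeat an earlier name and none of these is among the 10 genes. Totals ran from 16350548 to 19804661 counts. No pair of replicates agreed within sampling noise (over the 12 pairs, chi-square divided by its degrees of freedom was 12.6 to 52.1). Replicates are separate mice.

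The fit was made with edgeR 4.0.16 in R 4.3.3 (TMM scaling, filterByExpr, estimateDisp, robust glmQLFit, glmQLFTest) on genotype alone, and Benjamini-Hochberg adjustment covered all 12725 rows tested. Standard errors are the log2 fold change divided by the square root of F, and 95% intervals use the moderated degrees of freedom. Correlations use log2 CPM with a prior count of 2. RPKM used union exon lengths from GENCODE M21 (GRCm38), an approximation, since the counts were made on another build. Promoter windows came from RefSeq (GRCm38.p6), which held all 10 genes. The fit was checked on simulated data.

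The genes named are the 10 members, up to 4 called genes of each list with the smallest p-values, all adipocyte markers, for each member the 5 rows with the most similar deviations, and *Nox4*. Some genes that this rule covers are not reported here. Other genes named were chosen after their values were seen. Members and lists were chosen with earlier results of these data known. Alternatives were DESeq2's size factors, library size only, no filter, a minimum of 10 counts per sample, a glmQLFit without the robust option, DESeq2 1.42.0, pydeseq2 0.5.4, the replicate number as a block, an adipocyte marker term, summed repeated names, other thresholds, and each library left out in turn. Leaving out both libraries highest in adipocyte markers was chosen after seeing the data.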

Additional observations from a re-analysis of the deposited data

Results flagged for a closer look

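The summed level of the 8 adipocyte markers in control replicate 1 (88.2 CPM) stood apart from the other 3 control libraries (22.5 to 31.1 CPM), with a gap of 0.87 of the group's range, past Dixon's 95% critical value for 4 libraries. It was the only one of 24 groups of 4 libraries tested (the 10 genes, the marker sum and the total counts in each genotype) to pass, where chance gives about 1 in 20, or 1.2. The nearest of the others were *Plin3* in NOX4-deficient replicate 2, the lowest of its group (0.811), *G0s2* in control replicate 3, also the lowest (0.809), and *Plin1* in NOX4-deficient replicate 2, the highest (0.79). Without NOX4-deficient replicate 2 the log2 fold change of *Plin3* was -0.57 (edgeR adjusted p = 0.114), not called, as with all libraries.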

How the results depend on the processing

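The calls of *Plin5* and *Pnpla2* held under all 19 alternative fits, with log2 fold changes from -1.91 to -1.58 (*Plin5*) and from -1.26 to -1.07 (*Pnpla2*). *Plin4* lost its call in 2, without NOX4-deficient replicate 2 and, at an edgeR adjusted p of 0.0829, without control replicate 1 and NOX4-deficient replicate 2. *Plin3* was called in 5 of 19. With each library left out in turn, 2 to 4 of the 10 genes were called lower and 0 higher. The count of genes called higher was 1 (*Plin1*) with the adipocyte marker term and also 1 without the libraries highest in adipocyte markers (1.45, edgeR adjusted p = 0.035). The sign of *Abhd5* turned without control replicate 4 (-0.04) and without NOX4-deficient replicate 4 (-0.0904), within a range from -0.0904 to 0.1205 with each library left out. The sign of *G0s2*, close to 0, turned with library size only (-0.0046), no filter (-0.0023), DESeq2 (-9.8e-05), pydeseq2 (-0.0026), the adipocyte marker term (-0.0393), without control replicate 3 (-0.26) and without NOX4-deficient replicate 3 (-0.18), and ranged from -0.26 to 0.164 with each library left out.

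Droplet proteins called lower went from 0 to 1 with DESeq2, pydeseq2, the replicate block and without the libraries highest in adipocyte markers, to 2 with no minimum fold change, and ranged from 0 to 1 with each library left out. Lipases and lipolytic control called lower went from 0 to 1 with the replicate block and without those libraries, and ranged from 0 to 1 with each library left out. PPAR targets called lower went from 6 to 3 at an adjusted p under 0.01 and without those libraries, and ranged from 3 to 7 with each library left out, the lowest without control replicate 2. Adipocyte markers called higher went from 0 to 1 without those libraries. The causes were not tested.

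Nothing in the labels says that equal replicate numbers share a litter or day. Deviations of same-numbered libraries had correlations of 0.223, 0.147, 0.041 and 0.0412, and in pair 1 alone was each library nearest to its own number. With the replicate block 933 rows were called in place of 784, and 3 of the 10 genes were called lower, as without it. Depth limits *Plin1* (17 to 285 counts) and *G0s2* (42 to 163 counts) most.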
